A study of Homo sapiens and Mus musculus with 33 samples.

Results

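The 9 genes described here belong to the tumour necrosis factor (TNF) superfamily, 5 ligands and 4 receptors that T cells are known to make, and were followed across the study: the ligands TNF, LTA, LTB, TNFSF8 and TNFSF14, and the receptors TNFRSF4, TNFRSF9, TNFRSF18 and CD27. They were chosen by name and not by their values, and all 9 were listed in the gene tables, with their mouse orthologs in the mouse tables. The study joined metabolic RNA labelling with 4-thiouridine (4sU), which is read as T-to-C conversions after treatment with iodoacetamide (IAA), to droplet single-cell 3′ sequencing (NOTE-seq) and to bulk 3′ sequencing (SLAM-seq). Of its 33 samples, 16 single-cell libraries and 9 bulk libraries were used. The mouse T cells came from lymph nodes and were taken at 0, 2, 4, 6 and 8 h of anti-CD3 and anti-CD28 stimulation, with 1 library per time, and 1 further library had no 4sU and no stated stimulation. The labels used here do not give their strain, age or number of animals. Jurkat, a line from a human T cell leukaemia, gave 2 libraries stimulated with PMA and ionomycin, labelled clone E6-2, and 2 unstimulated libraries, labelled clone E6-1, which the design text sets against DMSO. Bulk Jurkat libraries came as 3 treated with 50 nM CPT, 3 treated with 1 µM ETO and 3 controls, all titled as labelled with 4sU. The remaining single-cell libraries were eHAP, a human haploid line (standard 10x, NOTE-seq and methanol protocols, 1 library each), 2 libraries labelled K562, and a mix of Jurkat with mouse NIH3T3 fibroblasts. The mix is titled as having no 4sU labelling, and 1 library labelled K562 as having 4sU but no IAA. Titles give 4sU labelling for the other Jurkat libraries, the timed mouse libraries and the NOTE-seq and methanol eHAP libraries. The other library labelled K562 has 4sU in its library name. Nothing in the labels says that replicates were separate cultures, so p-values measure only how far these libraries differ among themselves, possibly for technical reasons.

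TNF superfamily ligands are mostly trimeric type II membrane proteins, some of which are shed. They cluster receptors that bind TRAF adaptors or death domain proteins and signal to NF-kappaB and MAP kinases. TNF and lymphotoxin alpha (LTA) bind the TNF receptors, and lymphotoxin beta (LTB) anchors lymphotoxin alpha at the membrane and engages LTBR. TNFSF8 (CD30 ligand) binds TNFRSF8, and TNFSF14 (LIGHT) binds TNFRSF14 and LTBR. TNFRSF4 (OX40), TNFRSF9 (4-1BB), TNFRSF18 (GITR) and CD27 are costimulatory receptors of T cells, whose ligands are TNFSF4, TNFSF9, TNFSF18 and CD70.

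The genes lie close together in part: TNF, LTA and LTB share a stretch of human chromosome 6, and TNFRSF4, TNFRSF9 and TNFRSF18 lie on chromosome 1. RefSeq promoter windows (GRCh38.p14, 250 bases before to 50 after a gene's start) were matched by symbol for 7 of the 9 genes, and TNFSF8 and TNFRSF4 are named only. The windows were searched on both strands for the NF-kappaB pattern (GGG, any 4 bases, then TCC) and the AP-1 pattern TGANTCA, since both factors are known to act on promoters of T cell activation genes. The NF-kappaB pattern was found in 5 of the 7 genes (TNF, LTA, LTB, TNFRSF9 and TNFRSF18), against 22.6% of all 35116 windows. These counts are per gene over 10 windows, since some genes have several, while the shares are per window. A second NF-kappaB form (GGG, any 4 bases, then CCC), which overlaps the first in places, was in 3 of 7 genes and 17.8% of all windows. The AP-1 pattern was found in 3 of the 7 (TNFRSF9, TNFSF14 and CD27), against 7.71% of all windows. The NFAT core GGAAA, whose reverse complement overlaps some NF-kappaB matches, was in all 7 and in 61.2% of all windows, and the CRE pattern TGACGTCA was in 0 of 7 and in 1.85% of all windows. Stretches of 30 bases around 1 match each, 5′ to 3′ on the gene's strand with the match in capitals, are shown to let the matches be compared.
TNF, chr6:31575454-31575483, plus strand, NF-kappaB match starting 101 bases before the start: atgagctcatGGGTTTCTCCaccaaggaag
LTA, chr6:31572175-31572204, plus strand, NF-kappaB match starting 104 bases before the start: tctaagccctGGGGGCTTCCccgggcccca
LTB, chr6:31582492-31582521, minus strand, NF-kappaB match on the other strand starting 86 bases before the start: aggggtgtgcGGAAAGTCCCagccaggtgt
TNFRSF9, chr1:7940894-7940923, minus strand, NF-kappaB match starting 74 bases before the start: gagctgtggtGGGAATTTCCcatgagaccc
TNFRSF9, chr1:7940865-7940894, minus strand, AP-1 match starting 44 bases before the start: ccgcccctggcTGAGTCAccgcactcctgt
TNFSF14, chr19:6670308-6670337, minus strand, AP-1 match starting 166 bases before the start: cacttgccaccTGAGTCAcattttcagaag
In TNFRSF9 the NF-kappaB letters read as the pattern on both strands, 1 base apart, and the AP-1 match follows downstream. These are matches of letters and do not show binding.

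The libraries differed in depth. Single-cell libraries held 49 to 4223 barcodes, and the median barcode held 338 to 659 UMIs (unique molecules) in the mouse T cell libraries and 7126 to 18022 UMIs in the human libraries outside the mix. Any pair of libraries shared at most 6 barcodes. Bulk libraries held 17776970 to 39602287 reads on 3′ UTR lines. The T cell label of the mouse libraries was met by their markers: all 10 T cell markers were seen at every time, with a summed level of 4183 to 5326 CPM (counts scaled to the library total), against 1.37 to 5.71 CPM for 6 B cell markers and 1.32 to 8.21 CPM for 7 myeloid markers. The 2 libraries labelled K562 went against that label, and are called the libraries labelled K562 here. In the one with IAA the 9 erythroid and K562 markers summed to 1.87 CPM, with HBG1 at 0 UMIs, while 4 NK cell markers summed to 887 CPM, of which NKG7 alone made 877 CPM, and 7 myeloid markers to 260 CPM, with CD14 at 0 UMIs.

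In the mouse T cells the 9 genes followed several distinct courses over 8 h. Tnf and Cd27 were highest at 2 h, Lta, Tnfsf14 and Tnfrsf9 at 4 h, Tnfrsf18 at 6 h, and Tnfsf8 and Tnfrsf4 at 8 h, while Ltb was highest before stimulation, all in CPM. Per 1000 barcodes, Lta and Tnfrsf9 were highest at 6 h (35.6 and 942 UMIs, against 32.7 and 852 at 4 h), and Ltb at 4 h (47.6 UMIs, against 45.6 at 0 h). Each time is 1 library, so there is no replicate check, no test and no SD, and the intervals given are exact 95% Poisson intervals that cover counting error only. Counting a gene where both libraries together held 20 UMIs or more, 6 of 9 were at least 2-fold higher at 2 h than at 0 h, where 11.5% of 5827 genes were, and 2 of 9 were at least 2-fold lower, where 20.3% of genes were. At 4 h, 7 of 9 were at least 2-fold higher (20.9% of genes) and 0 of 9 lower (28.9% of genes). At 6 h, 6 of 9 were higher (22.5% of genes) and 1 of 9 lower (32.1% of genes). At 8 h, 4 of 7 were higher (24.9% of genes) and 1 of 7 lower (33.0% of genes), with Tnf and Tnfsf14 under 20 UMIs by then. Tnf, Lta, Tnfsf8, Tnfsf14, Tnfrsf4 and Tnfrsf9 held 0 to 8 UMIs at 0 h and reached 20 only through the later libraries. The filter thus fixed their direction, for Tnfrsf4 at 2, 4 and 8 h, and these counts only describe.

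**Figure D1:**
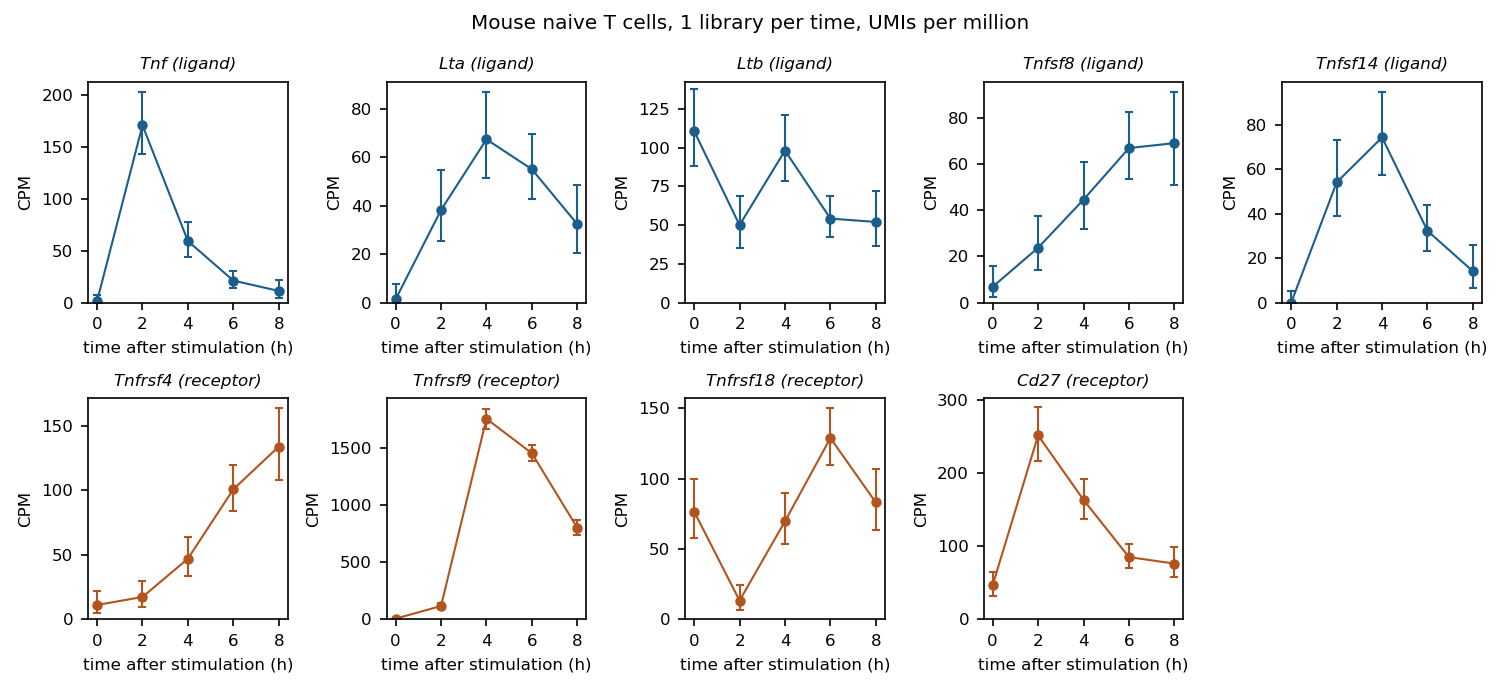
Level of each gene in mouse T cells (vertical axis, CPM, starting at 0) against time after stimulation (horizontal axis, hours), 1 library per time, ligands in the upper row and receptors in the lower row. Bars are exact 95% Poisson intervals of the UMI count. Tnf stood at 171 CPM at 2 h and 11.3 CPM at 8 h, while Tnfrsf4 reached 134 CPM at 8 h.

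Tnf, the inflammatory cytokine of the family, had 1.37, 171, 59.4, 21.2 and 11.3 CPM at 0, 2, 4, 6 and 8 h, from 1, 130, 52, 27 and 8 UMIs. Its level at 2 h was 125-fold that at 0 h, with an interval of 22.1 to 4983 that is wide because the 0 h library held 1 UMI. Each later time was lower than the one before, by ratios of 0.347 (0.246 to 0.482) from 2 to 4 h and 0.357 (0.216 to 0.580) from 4 to 6 h, and 0.530 (0.208 to 1.20) from 6 to 8 h, the last within counting error. A Tnf UMI was seen in 1 of 1777 barcodes at 0 h, which is 0.0563%, and in 6.01% of barcodes at 2 h. After each barcode was thinned to 250 UMIs, with 313 shallower barcodes left out at 0 h and 590 at 2 h, these shares were 0.0683% and 4.12%. The highest number of Tnf UMIs in a barcode was 3.

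Lta had 1.37, 38.2, 67.4, 55.0 and 32.4 CPM at 0, 2, 4, 6 and 8 h, from 1, 29, 59, 70 and 23 UMIs. It was thus highest later than Tnf, its neighbour in the genome: between 2 and 4 h the level of Lta was multiplied by 1.76 (1.11 to 2.85), and its levels at 4 and 6 h did not differ beyond counting error (ratio 0.817, 0.569 to 1.18). Ltb, the third gene of that cluster, had 111, 50.1, 98.2, 54.3 and 52.1 CPM from 81, 38, 86, 69 and 37 UMIs. It stood at 0.452-fold of its 0 h level at 2 h (0.299 to 0.672), at 0.887-fold at 4 h (0.647 to 1.22), and at 0.490-fold and 0.470-fold at 6 and 8 h. Per 1000 barcodes rather than in CPM, Ltb was at 0.770-fold at 6 h and 0.834-fold at 8 h, both within counting error. That scale moved the median log2 ratio of all genes to 0.41 at 6 h and 0.61 at 8 h, against -0.24 and -0.22 in CPM, because the barcodes held more UMIs at late times.

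Tnfsf14, the ligand LIGHT, was at 0 UMIs at 0 h and in the library without 4sU. It then had 54.0, 74.2, 32.2 and 14.1 CPM at 2, 4, 6 and 8 h, from 41, 65, 41 and 10 UMIs. Set against a floor of 3 UMIs in the 0 h library, it was at least 13.2-fold higher at 2 h and at least 18.1-fold higher at 4 h. The lower 95% counting bounds of these ratios, which also cover the error of the later library, were 10.2 and 14.3. Tnfsf8, the CD30 ligand, had a higher level at each time than at the one before, with 6.84, 23.7, 44.5, 66.8 and 69.0 CPM from 5, 18, 39, 85 and 49 UMIs. Its levels at 6 and 8 h did not differ beyond counting error (ratio 1.03, 0.711 to 1.48).

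Among the receptors Tnfrsf9 (4-1BB) changed by the greatest factor. It had 4.10, 115, 1758, 1455 and 801 CPM at 0, 2, 4, 6 and 8 h, from 3, 87, 1539, 1851 and 569 UMIs. Its level at 4 h was 428-fold that at 0 h (146 to 2080), and between 2 and 4 h alone it was multiplied by 15.3 (12.4 to 19.3). The share of barcodes with a Tnfrsf9 UMI was 0.169% at 0 h, 4.01% at 2 h, 49.3% at 4 h, 52.7% at 6 h and 39.6% at 8 h. Thinned to 250 UMIs per barcode, the shares were 0.137%, 2.91%, 33.0%, 29.8% and 19.2%, with 4 h the highest on this scale.

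Tnfrsf4 (OX40) was higher at each time than at the one before, with 10.9, 17.1, 46.8, 101 and 134 CPM from 8, 13, 41, 128 and 95 UMIs. Its level at 8 h was 12.2-fold that at 0 h (5.96 to 29.1), while its levels at 0 and 2 h did not differ beyond counting error (ratio 1.57, 0.601 to 4.36). Tnfrsf18 (GITR), which lies beside it in the genome, took another course: it had 76.6, 13.2, 69.7, 129 and 83.0 CPM from 56, 10, 61, 164 and 59 UMIs. It was at 0.172-fold of its 0 h level at 2 h (0.0782 to 0.340) and at 1.68-fold at 6 h (1.24 to 2.32). Per 1000 barcodes the 6 h value was 2.65-fold.

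Cd27, which naive T cells carry before activation, had 46.5, 252, 163, 84.9 and 76.0 CPM from 34, 191, 143, 108 and 54 UMIs. Its level at 2 h was 5.41-fold that at 0 h (3.74 to 8.04), and it was lower at each of the next 2 times. The library without 4sU held 151 Cd27 UMIs, 2.39-fold the 0 h level (1.64 to 3.58), so 2 libraries without a stated stimulus or before it differed here beyond counting error. Of the other genes, 7 were within counting error of their 0 h level, with ratios of 0.923 to 2.15, and Tnfsf14 was at 0 UMIs in both.

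Markers of other cells moved with time as well. The 4 NK cell markers summed to 167 CPM at 0 h and 266, 315, 610 and 549 CPM at 2, 4, 6 and 8 h, nearly all from Nkg7 and Klrd1, which activated CD8 T cells also make, and the defining marker Ncr1 was at 0 UMIs at every time. The 5 regulatory T cell markers summed to 129, 166, 339, 387 and 253 CPM, and their makeup shifted. Il2ra, which activated T cells also make, had 0 UMIs at 0 h and 98.8, 306, 361 and 242 CPM after it, while Ikzf2 had 76.6, 29.0, 11.4, 3.15 and 0 CPM and Ctla4 had 43.8, 36.9, 19.4, 18.1 and 9.85 CPM. The defining marker Foxp3 had 0, 0, 1, 6 and 1 UMIs. Restricting the barcodes to those with a T cell marker UMI and no B cell or myeloid marker UMI left the same 6, 7, 6 and 4 genes at least 2-fold higher at 2, 4, 6 and 8 h, while Ltb was no longer 2-fold lower at 6 h (0.528-fold) or 8 h (0.509-fold). The part of a change in cell makeup in these levels was not tested.

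The receptors also differed between barcodes marked by Cd8a or Cd8b1 UMIs and barcodes marked by Cd4 UMIs. Summed over 2 to 8 h, 654 barcodes were marked by Cd8 and 65 by Cd4, and most barcodes carried neither. Tnfrsf4 had 11.2 CPM in Cd8-marked barcodes, from 5 UMIs, against 311 CPM in Cd4-marked barcodes, from 12 UMIs, a ratio of 0.0361 (0.00997 to 0.110). Those 12 UMIs came from 6 h (7 UMIs in 16 barcodes) and 8 h (5 UMIs in 13 barcodes), with 0 at 2 and 4 h. At 6 h, 1 barcode, whose mark was not looked up, held 6 Tnfrsf4 UMIs, while the interval takes UMIs as independent. Tnfrsf18 had 42.7 CPM in Cd8-marked and 155 CPM in Cd4-marked barcodes, from 19 and 6 UMIs (ratio 0.275, 0.105 to 0.840), and 5 of those 6 UMIs came from 6 h.

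**Figure D2:**
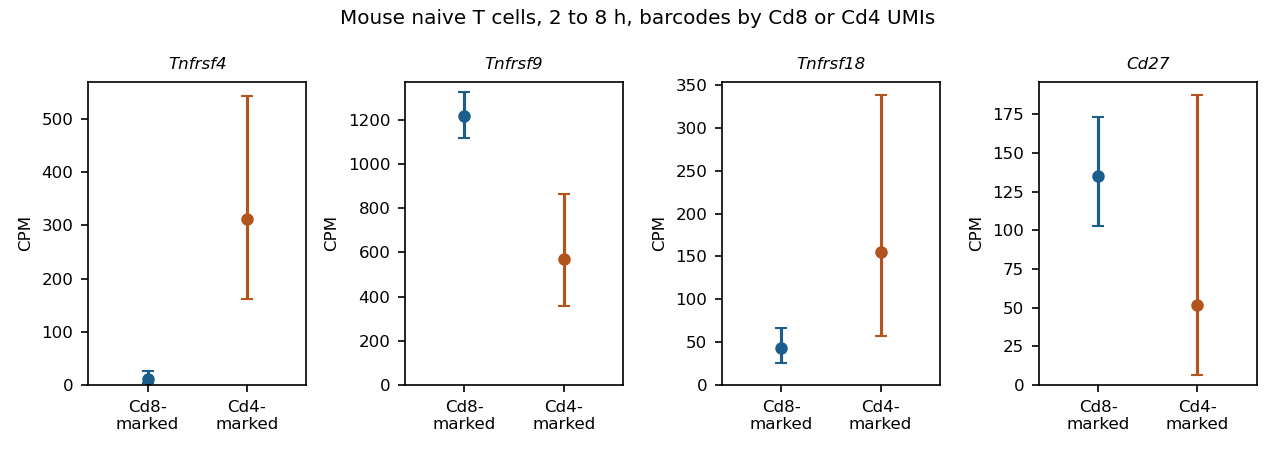
Level of the 4 receptors (vertical axis, CPM, starting at 0) in barcodes marked by Cd8 UMIs (left) and by Cd4 UMIs (right), summed over 2, 4, 6 and 8 h. Bars are exact 95% Poisson intervals, and Tnfrsf4 stands at 11.2 CPM in Cd8-marked against 311 CPM in Cd4-marked barcodes.

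Tnfrsf9 lay the other way, with 1218 CPM in Cd8-marked and 570 CPM in Cd4-marked barcodes, from 542 and 22 UMIs (ratio 2.14, 1.40 to 3.44). Within single times the Cd4-marked groups were small, with 12 to 24 barcodes. At 8 h the Tnfrsf9 levels were 895 CPM in Cd8-marked and 905 CPM in Cd4-marked barcodes, so the summed ratio was not seen at that time. Cd27 had 135 CPM in Cd8-marked and 51.8 CPM in Cd4-marked barcodes, within counting error (ratio 2.60, 0.690 to 22.0). Of the ligands, Tnf was seen with 27 UMIs in Cd8-marked and 0 UMIs in Cd4-marked barcodes, which at the depth of 38595 Cd4-marked UMIs does not set the groups apart (lower bound of the ratio 0.592).

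The genes nearest in time course were found by the root mean square difference of the log2(CPM + 10) change from 0 h over 2, 4, 6 and 8 h, among 4002 genes with at least 100 UMIs over the 5 libraries. For Tnf they were Gadd45b, Plk3 and Nfkbid (difference 0.31 to 0.45), of which Gadd45b had 6.84, 192, 112, 50.3 and 21.1 CPM. For Tnfsf14 they were Spry1, Gfod1 and Myc (0.20 to 0.23), and for Lta they were M6pr, Pdcd1 and Pfn1 (0.21 to 0.22). Cd27 lay nearest to Pfkfb3, Med14 and Ikzf3 (0.15 to 0.25), and Ltb to Tap1, Dync1h1 and Sirt7 (0.15 to 0.17). The late genes were Tnfsf8, nearest to Ndufc1, Naa50 and Polr2k (0.06 to 0.09), and Tnfrsf4, nearest to Pdcd5, Serpinb9 and Txn1 (0.13 to 0.17). Tnfrsf18 lay nearest to Slfn2, Polr2g and Tmed3 (0.37 to 0.50). No gene came close to Tnfrsf9: its nearest were Ccl4, Il2ra and Bcl2a1b, at 1.23 to 1.56. These likenesses rest on 5 libraries of 1 course each.

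The partners of the family were mostly too low to follow in these cells. Of 13 other ligands, 2 reached 20 UMIs in the pair at 2 h, both only through the 2 h library, so that a higher level there was fixed by the filter. Tnfsf11, the RANK ligand, had 85.6 CPM at 2 h against 1.37 CPM at 0 h, and Cd40lg, the ligand of CD40, had 75.1 CPM at 2 h against 2.74 CPM at 0 h. Of 23 other receptors, Tnfrsf1b alone reached that number at 2 h, with 137 CPM against 41.0 CPM at 0 h (3.34-fold, 2.21 to 5.19), and by 8 h it was at 14.1 CPM. Fas reached it at 4 h, with 25.1 CPM against 5.47 CPM at 0 h. The ligands of the 4 receptors were near 0: over the 5 times Tnfsf4, Tnfsf9 and Cd70 had 3, 3 and 2 UMIs and Tnfsf18 had 0, and Ltbr and Tnfrsf8 had 0 UMIs.

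Of 13 NF-kappaB subunits and inhibitors, 10 reached 20 UMIs at 2 h, of which 5 were at least 2-fold higher (11.5% of all genes) and 2 lower (20.3% of all genes), with a median log2 ratio of 0.96 against -0.15 for all genes. Nfkb1, which encodes p50, had 586 CPM at 2 h against 152 CPM at 0 h, Nfkb2 had 223 CPM against 60.2 CPM, and the inhibitor Nfkbib had 83.0 CPM against 20.5 CPM. Tnfaip3 (A20), a brake on NF-kappaB signalling, was lower: it had 10.5 CPM at 2 h and 0 UMIs at 8 h, against 114 CPM and 83 UMIs at 0 h. Tnip1, its partner, had 20.6 CPM at 4 h against 131 CPM at 0 h. Of 24 adaptors and kinases, 19 reached 20 UMIs at 2 h, with Traf1 and Birc3 at least 2-fold higher and Map3k14 lower, counts near or below the 11.5% and 20.3% of all genes. Traf1, an adaptor bound by TNFRSF9 among others, had 217 CPM at 2 h against 53.3 CPM at 0 h, and Map3k14 (NIK), the kinase of the alternative NF-kappaB pathway, had 12.7 CPM at 8 h against 127 CPM at 0 h. At 8 h, 9 of 20 measured members of that list were at least 2-fold lower and 0 higher, against 33.0% and 24.9% of all genes, with a median log2 ratio of -0.83 against -0.22 for all genes.

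In Jurkat cells TNF was the gene of the 9 that differed most between stimulated and unstimulated libraries. The libraries form 2 sets, one titled as replicate 1 and one with no number, which are called set 1 and set 2. Since the stimulated libraries are labelled E6-2 and the unstimulated ones E6-1, clone and stimulation cannot be told apart in these differences. TNF had 12.1 and 83.3 CPM in the stimulated libraries of set 1 and set 2, from 543 and 1760 UMIs, against 0.160 and 0.415 CPM in the unstimulated libraries, from 6 and 3 UMIs. Both stimulated libraries lay above both unstimulated ones, and within a set the level was 75.7-fold higher (34.6 to 207) and 201-fold higher (68.5 to 974), with 3 unstimulated UMIs behind the value of set 2. The log2 ratio over the 4 libraries was 7.82 ± 1.58 (SE), with edgeR's adjusted p = 1.00 after Benjamini-Hochberg adjustment over 19099 genes (unadjusted p = 0.00506). That test called 0 genes, 0% of those tested, in either direction and so 0 of the 8 members that passed the filter on low counts. At an unadjusted p under 0.05 it held 218 genes, and DESeq2 called 49 genes, TNF among them (adjusted p = 2.84e-09). The 2 sets were not a term in these fits. Libraries of a set deviated together (r = 0.865), so the spread in these fits includes the difference between sets. A fit with the sets as a block, given at the end, changed the calls.

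LTA had 10.2 and 43.4 CPM in stimulated libraries against 4.88 and 9.83 CPM in unstimulated libraries of set 1 and set 2. The lower stimulated library was only just above the higher unstimulated one, within counting error (9.28 to 11.2 against 7.68 to 12.4 CPM). Within a set LTA was 2.09-fold (1.76 to 2.49) and 4.42-fold higher (3.47 to 5.71). Human barcodes of the mix, labelled Jurkat without stated stimulation, had 12.1 CPM of LTA (6.63 to 20.3), from 14 UMIs. LTB had 17.1 and 23.2 CPM in stimulated against 10.8 and 5.81 CPM in unstimulated libraries, 1.58-fold (1.40 to 1.79) and 3.99-fold (2.91 to 5.61) within a set. Of the 405 LTB UMIs of the unstimulated library of set 1, 64 came from 1 barcode. TNFSF14 had 1.41 and 3.31 CPM in stimulated against 0.240 and 0.277 CPM in unstimulated libraries, 5.86-fold within set 1 (2.90 to 13.4) and with an interval of 3.19 to 101 within set 2, where the unstimulated library held 2 UMIs. The groups did not overlap for any of these 4 ligands, but how often other genes separate in this way was not counted, so this only describes. Unadjusted p-values from edgeR were 0.111 for LTA, 0.0479 for LTB and 0.0130 for TNFSF14, with an adjusted p = 1.00 for each. These come from the fit without the sets as a term, and the block fit given at the end changed these calls.

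**Figure D3:**
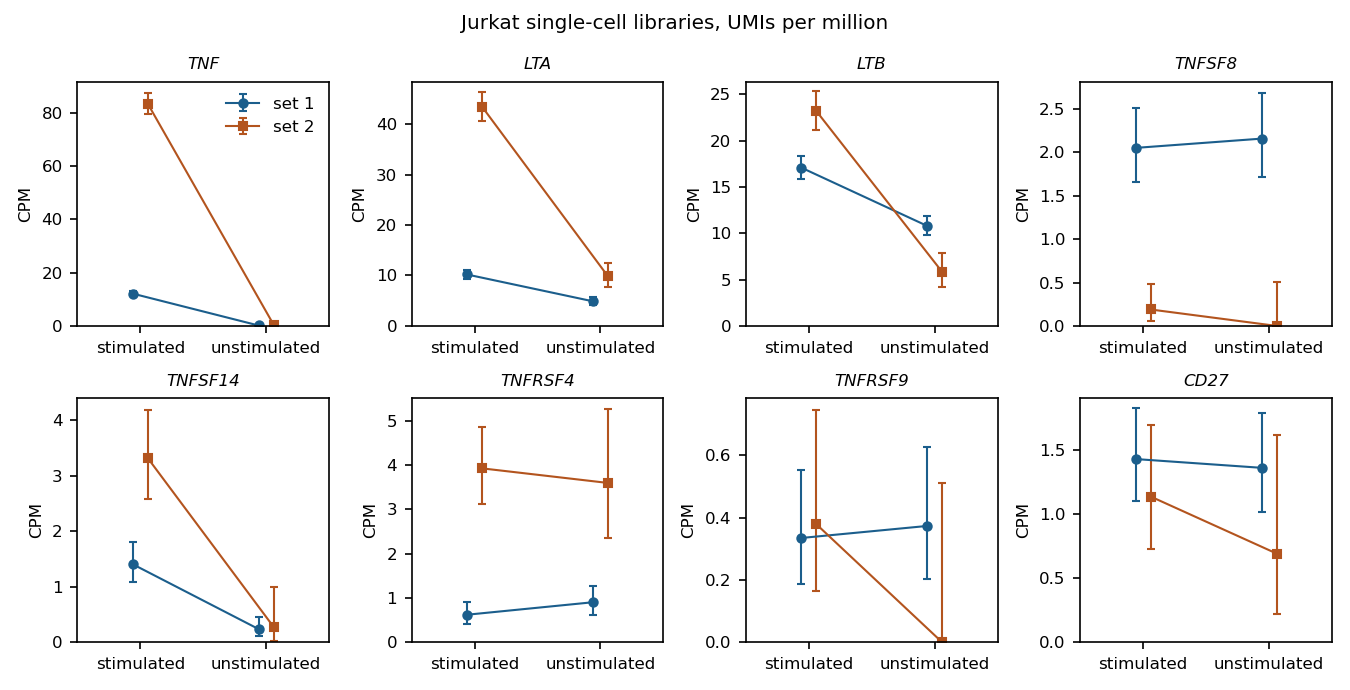
Level of 8 genes in Jurkat single-cell libraries (vertical axis, CPM, starting at 0), stimulated on the left and unstimulated on the right, with circles for set 1 and squares for set 2 joined within a set. Bars are exact 95% Poisson intervals. TNF stands at 12.1 and 83.3 CPM in stimulated and under 0.5 CPM in unstimulated libraries.

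The other members showed no such gap. TNFRSF4 differed by set and not by stimulation: it had 0.625 and 3.93 CPM in stimulated against 0.907 and 3.60 CPM in unstimulated libraries (within-set ratios 0.689 and 1.09, both intervals spanning 1). TNFSF8 had 2.05 and 0.189 CPM in stimulated against 2.16 and 0 CPM in unstimulated libraries. CD27 had 1.43 and 1.14 CPM in stimulated against 1.36 and 0.692 CPM in unstimulated libraries, and TNFRSF9 had 0.335 and 0.379 CPM against 0.373 and 0 CPM. TNFRSF18 had 5 and 0 UMIs in stimulated and 0 UMIs in both unstimulated libraries. T cell markers summed to 2166 and 3286 CPM in stimulated against 2264 and 2998 CPM in unstimulated libraries, higher in set 2 than in set 1 in both groups. The 5 regulatory T cell markers summed to 624 and 172 CPM in stimulated against 1290 and 306 CPM in unstimulated libraries, with the defining FOXP3 at 9 to 12 UMIs in 3 libraries and 1 UMI in the fourth, and their part in these results was not tested.

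A TNF UMI was seen in 15.5% and 44.1% of barcodes of the stimulated libraries, against 0.271% and 0.765% of the unstimulated libraries, whose median depths were 17284.5 and 8876 UMIs against 17481 and 14975 UMIs. Thinned to 5000 UMIs per barcode, the shares were 5.82% (4.87% to 6.89%, exact binomial) and 30.4% (28.2% to 32.6%) in stimulated libraries, against 0.114% and 0% in unstimulated libraries. In eHAP cells, 0 barcodes of each library held a TNF UMI. For the 2807 barcodes of the standard library the floor of 3 counts is 0.107%, and the exact binomial upper bound is 0.131%. In set 1, an LTA UMI was seen in 26.8% of barcodes with TNF and in 13.9% of those without, at median depths of 19709 and 16791 UMIs, and in set 2 in 34.4% and 23.6%, at 9510 and 8369 UMIs. TNFSF14 was seen in 6.48% of barcodes with TNF and 1.65% without in set 1, and in 3.76% and 2.59% in set 2. The TNFSF14 intervals overlapped in set 2. LTB was seen in 29.3% of barcodes with TNF and 19.6% without in set 1, and in 22.5% and 15.9% in set 2. The shares of TNFRSF4 and CD27 lay the same way, but with overlapping intervals in both sets. CD27 stood at 4.51% and 2.16% in set 1 and at 1.41% and 1.11% in set 2, where its CPM lay the other way (1.08 and 1.19). The difference was thus seen for LTB as well as LTA, and these shares were not thinned to equal depth.

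No list of family partners held a call in that test, for the reason that it made no call at all. Median log2 ratios were 0.75 for 13 NF-kappaB subunits and inhibitors, 0.26 for 16 other receptors, 0.14 for 24 adaptors and kinases and 0.02 for 8 other ligands, against 0.00 for all genes tested.

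In bulk Jurkat libraries, total RNA of 3 members was higher with CPT than in controls. TNF, CD27 and TNFRSF9 passed edgeR's quasi-likelihood test, 3 of the 7 members that passed the filter on low counts, where 47.8% of all 17322 genes were called, a share near that of the members. TNFRSF9 had at most 3 reads in any library without CPT and passed that filter only through the CPT libraries. The filter thus set the direction of its ratios against control and against ETO, and the counts in this paragraph include it. With ETO against control 0 of the 7 were called, where 34.3% of genes were. Between the agents, CPT against ETO, 4 of the 7 were called (CD27, TNFRSF9 and TNFSF14 higher and LTB lower with CPT), where 30.1% of genes were. The labels name the agents as CPT and ETO only. In these bulk samples fewer cells making a gene and less RNA per cell cannot be told apart. TNFSF8, with 0 to 6 reads a library, and TNFRSF18, with 0 reads in all 9, did not pass the filter.

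CD27 showed the cleanest separation. It had 2.84, 3.39 and 2.76 CPM in the CPT libraries and 1.58, 0.808 and 1.06 CPM in the ETO libraries, against 1.20, 1.02 and 1.09 CPM in control libraries. All 3 CPT libraries lay above all ETO and control libraries, with a log2 ratio of 1.30 ± 0.36 (SE) for CPT against control (adjusted p = 0.00438) and 1.32 ± 0.36 for CPT against ETO (adjusted p = 0.00730) by edgeR. Both calls held without any single library (highest adjusted p = 0.0235 and 0.0386). Its reads fell on the 3′ UTR at chr12:6451393-6451718 (GRCh38, plus strand), and none was multimapped. TNF, counted at chr6:31577538-31578336 (plus strand), had 4.18, 2.54 and 1.74 CPM with CPT and 1.83, 1.19 and 1.69 CPM with ETO, against 1.35, 1.14 and 0.803 CPM in controls. The CPT and control libraries did not overlap, and the log2 ratio was 1.23 ± 0.38 (adjusted p = 0.0105). The call rests on single libraries: without CPT library 1 the ratio was 0.83 (adjusted p = 0.0925), and without control library 3 it was 1.04 (adjusted p = 0.0599).

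**Figure D4:**
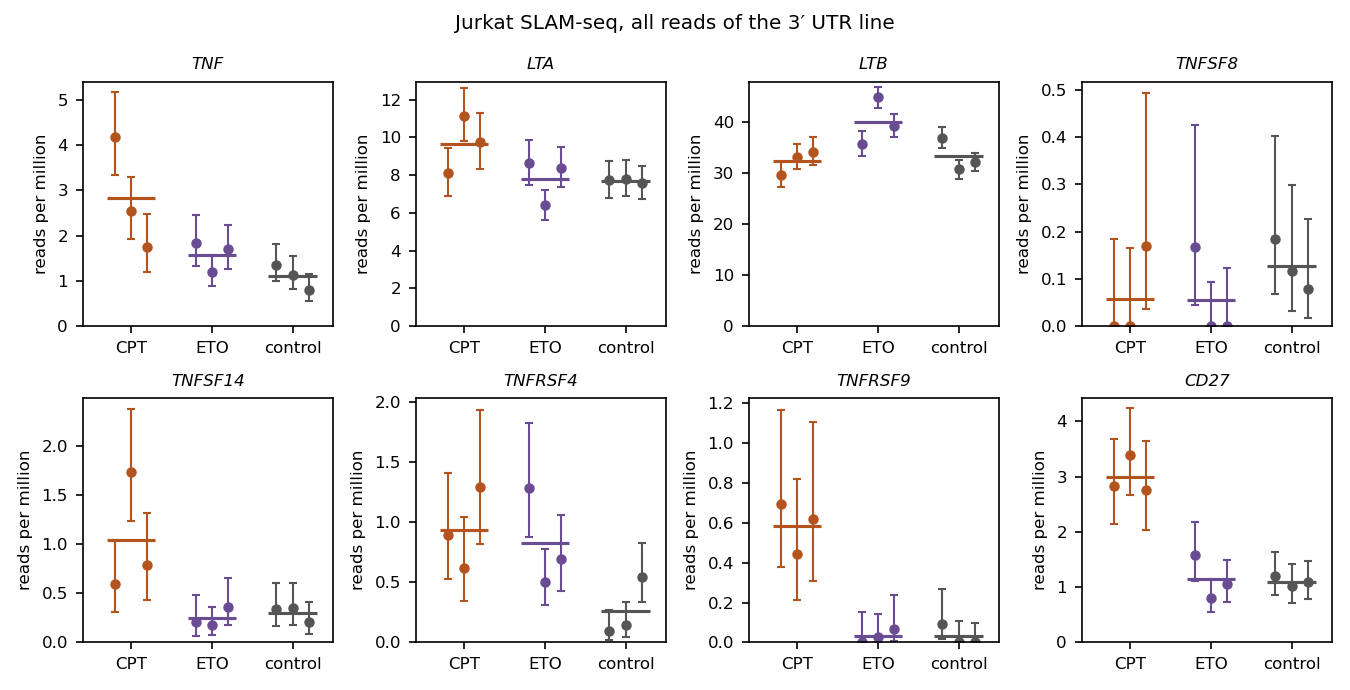
CPM (vertical axis, starting at 0) of 8 genes in each Jurkat SLAM-seq library, with CPT, ETO and control from left to right. Points are libraries with exact 95% Poisson intervals and lines are group means. CD27 and TNFRSF9 stand higher in all 3 CPT libraries than in the other 6.

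TNFRSF9, counted at chr1:7915894-7920834 (minus strand), had 14, 10 and 11 reads with CPT and 0, 1 and 2 reads with ETO, against 3, 0 and 0 reads in controls. Over the 3 libraries of a group, 35 reads with CPT stood against 3 in controls, a ratio of 20.4 in CPM (6.43 to 104, counting error only), with an adjusted p = 0.00786 by edgeR. Without control library 2 or 3 that p was 0.0720 and 0.0766, and without ETO library 1 or 2 the p against ETO was 0.0818 and 0.0737, from 0.0148 with all libraries. Since the filter on low counts set the direction for TNFRSF9, these values only describe. TNFSF14 had 0.597, 1.74 and 0.788 CPM with CPT and 0.208, 0.177 and 0.365 CPM with ETO, against 0.338, 0.350 and 0.207 CPM in controls. All CPT libraries lay above the other 6, and edgeR gave a log2 ratio of 1.98 ± 0.72 against ETO (adjusted p = 0.0422) and 1.66 ± 0.70 against control (adjusted p = 0.0563). The ETO comparison lost its call without any of 4 libraries (CPT library 2 and each ETO library; adjusted p = 0.0575 to 0.235).

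TNFRSF4 had 0.896, 0.624 and 1.29 CPM with CPT and 1.29, 0.505 and 0.698 CPM with ETO, against 0.0923, 0.146 and 0.544 CPM in controls. The third control library held 21 of the 29 control reads. The log2 ratios were 1.66 ± 0.73 for CPT (adjusted p = 0.0655) and 1.55 ± 0.72 for ETO (adjusted p = 0.103), and without that control library they were 2.78 (adjusted p = 0.0196) and 2.67 (adjusted p = 0.0337). Neither lymphotoxin passed the test against control. LTA had 8.11, 11.1 and 9.73 CPM with CPT and 8.62, 6.39 and 8.37 CPM with ETO, against 7.72, 7.81 and 7.57 CPM in controls (log2 ratio for CPT 0.19 ± 0.16, adjusted p = 0.347). LTB had 29.6, 33.1 and 34.2 CPM with CPT and 35.7, 44.8 and 39.2 CPM with ETO, against 36.9, 30.7 and 32.1 CPM in controls. LTB was lower with CPT than with ETO (log2 ratio -0.38 ± 0.10, adjusted p = 0.00503), a call lost without ETO library 2 (adjusted p = 0.0546). All reads counted on the TNF, LTA and LTB lines were multimapped in the deposited tables, and the 7 to 13 lines of each gene on alternate contigs of chromosome 6 held 0 reads, so how these reads were placed bears on their level in all libraries. Mitochondrial reads made up 5.31% to 6.68% with CPT and 2.88% to 3.03% with ETO, against 1.05% to 1.24% in controls, and their part in these results was not tested.

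The counts for other members of the family and for its pathway stand against the 47.8% of all genes called with CPT and the 34.3% called with ETO, both against control. Of 14 other receptors tested, 7 rose and 2 fell with CPT against control (median log2 ratio 0.74, against 0.00 for all genes), and 3 rose and 0 fell with ETO. TNFRSF14, the receptor of TNFSF14, had 12.6, 11.7 and 11.1 CPM with CPT and 3.37, 3.51 and 3.59 CPM with ETO, against 3.05, 2.33 and 2.77 CPM in controls (CPT against control 1.98 ± 0.18, adjusted p = 7.28e-09). TNFRSF8, the receptor of TNFSF8, had 20.5, 16.9 and 22.5 CPM with ETO against 9.66, 10.8 and 10.9 CPM in controls (0.87 ± 0.13, adjusted p = 1.42e-05), and TNFRSF10A, a TRAIL receptor, rose with CPT (1.16 ± 0.18, adjusted p = 1.21e-05). Of 8 other ligands tested, 4 rose and 1 fell with CPT, and 2 rose and 0 fell with ETO. TNFSF9, the ligand of TNFRSF9, rose by 0.48 ± 0.14 with CPT (adjusted p = 0.00753). CD40LG rose with both agents, by 0.79 ± 0.09 (adjusted p = 2.55e-07) and 0.72 ± 0.09 (adjusted p = 2.22e-06). FASLG, the ligand of the death receptor FAS, had 34, 27 and 13 reads with CPT and 11, 2 and 14 reads with ETO, against 0, 1 and 1 reads in controls (adjusted p = 1.80e-04 and 0.0125 by edgeR). FASLG passed the filter on low counts only through the treated libraries, so the direction of its ratios, counted above, was set by that filter. EDA, the ectodysplasin gene, fell by 1.27 ± 0.16 with CPT (adjusted p = 9.93e-07).

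Of 12 NF-kappaB subunits and inhibitors tested, 9 rose and 1 fell with CPT (median log2 ratio 0.42), and 6 rose and 2 fell with ETO (median 0.17), against 47.8% and 34.3% of all genes called. RELB, a subunit of the alternative pathway, had 26.8, 25.9 and 30.0 CPM with CPT and 13.3, 14.1 and 13.5 CPM with ETO, against 6.77, 7.46 and 6.82 CPM in controls, which is 1.84 ± 0.12 and 0.90 ± 0.12 on the log2 scale (adjusted p = 2.73e-11 and 3.39e-06). CYLD, a deubiquitinase that restrains NF-kappaB, rose by 1.07 ± 0.09 and 0.48 ± 0.09. Of 21 adaptors and kinases, 6 rose and 5 fell with CPT and 2 rose and 5 fell with ETO, near the shares of all genes called. TRAF1 rose with CPT (1.25 ± 0.24, adjusted p = 1.69e-04), and TRAF3, which holds the alternative pathway in check, fell by 0.84 ± 0.07 with CPT (adjusted p = 6.37e-09). The comparisons share libraries: CPT and ETO are set against the same controls.

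New RNA, read as reads with a T-to-C conversion, was too sparse for most members. Only LTB passed the filter, and 0 of 1 was called in each comparison, where edgeR called 6.16% of 9277 genes for CPT against control, 1.90% for ETO against control and 1.89% for CPT against ETO. Those calls split into 313 higher and 258 lower, 108 and 68, and 84 and 91, but with library sizes taken from all reads into 91 and 2479, 178 and 49, and 17 and 3033. LTB had 1, 13 and 6 converted reads with CPT and 1, 5 and 0 with ETO, against 20, 15 and 20 in controls. As a share of LTB reads this was 0.168%, 1.75% and 0.987% with CPT and 0.117%, 0.282% and 0% with ETO, against 1.67%, 1.42% and 1.61% in controls. All ETO libraries lay below all controls, while the total LTB level did not pass the test (adjusted p = 0.108). The log2 ratio of new LTB RNA for ETO against control was -3.14 ± 1.04, which did not pass (adjusted p = 0.156). It did pass in a fit of those 2 groups alone (adjusted p = 0.00819). These ratios are relative to all converted reads, 1.27% to 1.30% of reads with CPT, 2.21% to 2.22% with ETO and 1.98% to 2.08% in controls. On that scale new RNA of the NF-kappaB inhibitor NFKBIA was higher with CPT than in controls (1.10 ± 0.17, edgeR's adjusted p = 1.62e-04). It was also higher than with ETO (1.27 ± 0.17, adjusted p = 8.65e-05). NFKBIA had 269, 277 and 143 converted of 1893, 2120 and 1424 reads with CPT, against 272, 267 and 351 of 1798, 2062 and 2505 in controls. New TNFSF9 RNA was higher on that scale with CPT than in controls (1.26 ± 0.35, adjusted p = 0.0335). It had 69, 36 and 29 converted of 322, 472 and 272 reads with CPT, against 56, 53 and 47 of 420, 375 and 403 in controls. Reads carry no molecular tags, so a few copied molecules may make up such counts.

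TNF had the highest labelled share of the 3 genes. It had 3, 2 and 7 converted reads with CPT and 10, 3 and 3 with ETO, against 4, 3 and 8 in controls. Over the libraries of a group that is 6.98% of TNF reads with CPT (3.66% to 11.9%, exact Clopper-Pearson) and 11.3% with ETO (6.58% to 17.7%), against 13.2% in controls (7.56% to 20.8%). By library the TNF shares were 3.57%, 3.51% and 22.6% with CPT and 22.7%, 6.38% and 5.88% with ETO. Controls stood at 9.09%, 7.69% and 25.8%. The pooled intervals do not cover this spread between libraries. The pooled share over all reads was 1.29%, 2.21% and 2.02% with CPT, with ETO and in controls. The median over 11359 genes that reached 100 reads in all 3 controls was 2.53% in controls. LTA lay below it in controls, at 0.247% (0.0299% to 0.888%), and had 1.37% with CPT and 0.983% with ETO. All 8 converted LTA reads of the CPT group came from CPT library 2. CD27 had 0 converted reads among 400 reads in the 9 libraries, on a line with 51 T positions. The share depends on how many T positions a line holds, 223 for TNF, 119 for LTA and 105 for LTB, and per T position covered the control rates were 0.889% for TNF, 0.0286% for LTA and 0.184% for LTB.

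**Figure D5:**
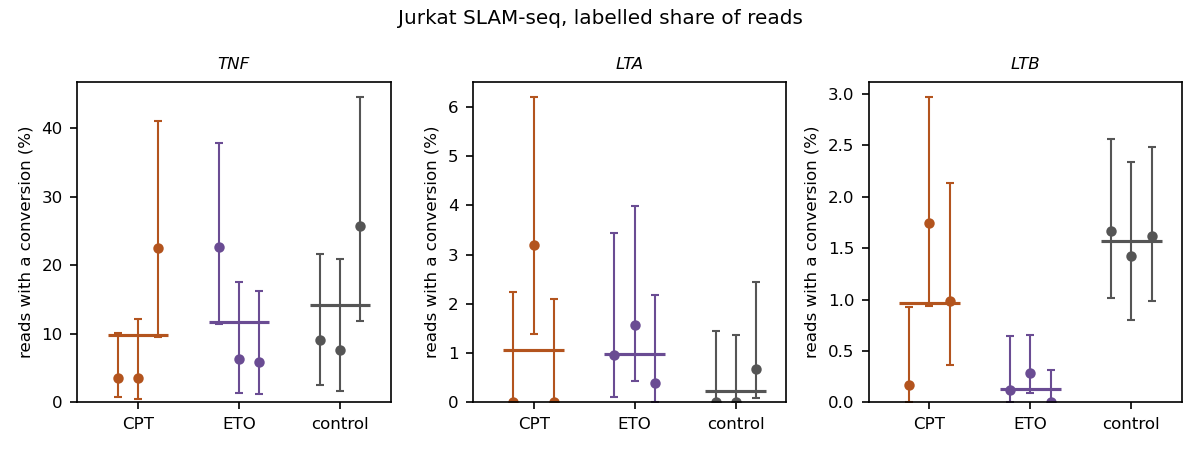
Reads with at least 1 conversion as a percentage of a gene's reads (vertical axis, starting at 0) for TNF, LTA and LTB in each Jurkat SLAM-seq library, with CPT, ETO and control from left to right. Points are libraries with exact 95% binomial intervals and lines are group means. For LTB the ETO libraries stand at 0% to 0.282% and the controls at 1.42% to 1.67%.

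Outside T cells most members were near 0. In the 3 eHAP libraries TNF and CD27 had 0 UMIs in each, and the other members had at most 11 UMIs (TNFRSF9 in the NOTE-seq library, 0.324 CPM). The library labelled K562 with IAA held 159 TNF UMIs (14.1 CPM), 132 TNFSF14 UMIs (11.7 CPM), 34 TNFRSF9 UMIs (3.02 CPM) and 21 LTB UMIs (1.87 CPM), and the smaller one without IAA, with 49 barcodes, held 3, 6, 0 and 5. For TNF this lay between the stimulated Jurkat libraries (12.1 and 83.3 CPM). In the mix, 239 barcodes were human and 291 mouse by at least 90% of their UMIs. The human ones, labelled Jurkat without stated stimulation, had 12.1 CPM of LTA, 9.53 CPM of LTB and 0 TNF UMIs. The mouse NIH3T3 barcodes had 19 Tnfrsf9 UMIs, 15.8 CPM, and their other members had at most 2 UMIs.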

How the data were processed

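Single-cell counts are UMIs per gene, deposited as 10x matrices made with cellranger 7.1.0 or 7.2.0 per the file headers, on builds GRCh38 and mm10 per the submitters' processing notes. Bulk counts are reads and converted reads per 3′ UTR line, deposited as slamdunk 0.4.3 tables per the file headers. Doublets were not removed. Here UMIs were summed per library and divided by its total (CPM). The bulk lines (GENCODE V33, per the file headers) were grouped where they overlapped on a strand and named by RefSeq gene ends within 1000 bases, which named 24139 genes and 89.6% of reads. Tests used edgeR 4.0.16 (quasi-likelihood, TMM, filterByExpr, Benjamini-Hochberg over all genes, threshold 0.05) in R 4.3.3, with new RNA normalized within converted reads. They were also run on simulated counts of a fixed spread without a difference between sets. That run cannot tell how the tests behave where sets differ, as in the Jurkat single-cell libraries. Naive T genes needed 20 UMIs in a pair of libraries, and intervals are exact, at 95%, for counting error only. The 0 floor was 3 counts. The genes and lists were chosen with earlier results of these data known, and genes named from a list were up to 4 a comparison, by smallest p among those called, or by largest ratio in naive T cells. Partners of the members are named besides. Alternatives were DESeq2 1.42.0, no filter, other library sizes, other scales, a replicate block and leaving out each library. Same-numbered bulk libraries did not deviate together (r = -0.037 to 0.012), so the numbers were not taken as pairs. The 8 naive T SLAM-seq libraries were not analysed here.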

Additional observations from a re-analysis of the deposited data

How the results depend on the processing

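No called log2 ratio of a member, and no naive T ratio outside counting error, changed direction under the alternatives run. Log2 ratios that were not called changed sign in some fits, and ratios within counting error crossed 1. Per 1000 barcodes Ltb stood at 1.04 and Tnfrsf18 at 1.07 at 4 h, and without mitochondrial and ribosomal protein genes Tnfrsf18 stood at 0.963 at 8 h. Of the members' tests, 293 kept their side of the threshold, 19 passed it and 15 lost it, and the losses lay in TNF, LTB, TNFSF14 and TNFRSF9 of the bulk libraries. Counts of new RNA genes called also moved. For CPT against control they were 880 with DESeq2, 2570 with library sizes from all reads, 334 in a fit of 2 groups and 225 to 838 without 1 library. For ETO against control they were 339 with DESeq2, 919 in a fit of 2 groups and 91 to 116 without 1 library. For CPT against ETO they were 392 with DESeq2, 3050 with library sizes from all reads, 53 in a fit of 2 groups and 60 to 367 without 1 library. The cause was not tested. Total RNA counts without 1 library were 7135 to 8057 for CPT against control, 4597 to 5056 for ETO against control and 4147 to 4990 for CPT against ETO.

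For stimulated against unstimulated Jurkat cells, DESeq2 called 49 genes, no filter gave 12, and leaving out 1 library gave 0 to 40 (40 without stimulated library 1, 25 without stimulated library 2, 16 without unstimulated library 2). With a replicate block for the 2 sets 2058 genes were called (1071 higher, 987 lower), among them TNF (log2 ratio 6.86), LTA (1.56), LTB (1.14) and TNFSF14 (2.83). Deviations of same-set libraries correlated at r = 0.865, but with 2 pairs the sets were not taken as pairs. In bulk libraries the replicate block gave 415, 145 and 121 new RNA calls and 7948, 5597 and 4887 total RNA calls for CPT against control, ETO against control and CPT against ETO.

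Naive T members at least 2-fold lower numbered 0 at 6 h and 0 at 8 h both per 1000 barcodes and in barcodes with a T cell marker. Per 1000 barcodes, those at least 2-fold higher numbered 8 at 6 h, with Tnfrsf18 and Cd27 added, and 5 at 8 h, with Cd27 added. Without thinning, TNF was seen in 44.1% and 15.5% of stimulated barcodes of set 2 and set 1. Depth limits the genes under 20 reads or UMIs.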
